A study of Drosophila melanogaster with 4 samples.

Results

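Basement membrane is the thin sheet of matrix that lines the tissues facing the body cavity of the fly, and 10 genes for its parts and for the proteins that handle it were followed through nuclei of the adult male abdomen. They are the type IV collagens *vkg* and *Col4a1*, the perlecan gene *trol*, the laminin chains *LanA* and *LanB1*, the nidogen gene *Ndg*, the collagen-binding protein *SPARC*, the peroxidasin gene *Pxn*, the secreted protease *AdamTS-A* and the integrin alpha chain *scb*. The genes were listed by name, and 10 of the 10 were found among the 13955 genes counted. Droplet-based snRNA-seq counts unique molecular identifiers (UMIs), each of which stands for 1 captured transcript of 1 nucleus. Values are given as CPM, which are the counts of a gene over all nuclei of a tissue in 1 library, scaled by the UMI total of those nuclei.

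Nuclei came from 2 libraries of *oenots>tsc1,tsc2* flies and 2 libraries of *oenots>EGFP* control flies. The first genotype was w1118 with UAS-Tsc1 and UAS-Tsc2, 2 negative regulators of TOR signaling, and the control was w1118 with UAS-2xEGFP. Both carried 1 copy of PromE-Gal4, which drives expression in oenocytes, the hepatocyte-like cells of the fly, together with tub-Gal80ts, so the controls also held Gal4 and Gal80ts, with EGFP in place of the Tsc transgenes. The driver is reported to be active in male accessory glands as well. Animals were reared at 18 °C, where Gal80ts silences the driver, and held for 4 days at 29 °C, where it does not. Every library pooled 40 abdomens after removal of the intestines and reproductive organs. The genes *Tsc1* and *gig* were not analysed here, so the labels were not checked on the transgenes.

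Collagen IV chains assemble into a network that bears the tension on a basement membrane, laminins form a second network that binds cells, and perlecan and nidogen join the sheets. In the larva most collagen IV is made by the fat body and secreted into the hemolymph, from which distant organs take it up, and SPARC helps to keep that collagen soluble until it is deposited. Integrins hold cells to the finished sheet, peroxidasin crosslinks collagen IV, and proteases of the ADAMTS family remodel it.

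The libraries held 7594 and 2267 nuclei of *oenots>tsc1,tsc2* and 7213 and 8067 nuclei of *oenots>EGFP*, with medians of 431 and 468 UMIs a nucleus against 372 and 417. Between 15 and 77 barcodes were shared by any pair of libraries. Tissues were taken from the deposited clustering of the control, whose 16 clusters are numbered 0 to 15, and carried over to all 4 libraries by a clustering that left out the 10 genes and other matrix genes. The adipose class held the adipose markers at 48934 to 57193 CPM in *oenots>tsc1,tsc2* and 62289 to 66644 CPM in *oenots>EGFP*. It was not uniform, since its joint clusters 10, 16 and 18 had 0 adipose markers at 2-fold or more above the rest of the nuclei. They held 821, 457 and 421 of its 14414 nuclei. Joint cluster 10 held 502 and 48 nuclei of *oenots>tsc1,tsc2* and 107 and 164 of *oenots>EGFP*. The part of these joint clusters in the adipose levels was not tested. Cluster 3, where 4 of the cuticle markers exceeded the rest of the nuclei by 2-fold or more, did not bear out the name epidermis. There 7 muscle markers did so too, and the 10 leading genes held none of the cuticle markers. In the class built on it 9 muscle and 4 cuticle markers did so, with 1 cuticle marker among the leading 10. The class was a mixture of clusters of the joint clustering. Joint cluster 9, with 877 of its 2615 nuclei, had 11 muscle and 2 cuticle markers at 2-fold or more, and joint cluster 36, with 55, had 6 and 2. Joint clusters 11, 15, 22 and 33 had at most 1 muscle marker and 2 to 4 cuticle markers. Over the whole class the muscle markers summed to 28281 to 33094 CPM in *oenots>tsc1,tsc2* and 28014 to 28262 CPM in *oenots>EGFP*, far above the cuticle markers at 2545 to 5169 CPM and 2926 to 3314 CPM. The class is therefore called the cuticle-gene nuclei, and cluster 5 with its matches, where muscle markers summed to 97316 to 150869 CPM and 121067 to 127757 CPM, is called muscle fibre. Hemocytes, blood cells that also make matrix, had no class of their own. Their 11 markers summed to 316 to 435 CPM in *oenots>tsc1,tsc2* adipose nuclei and 372 to 405 CPM in *oenots>EGFP* adipose nuclei, with *NimC4* at 0, and to between 110 and 530 CPM in the other classes. Their part in the levels given here was not tested.

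Positions are those of Release 6 of the genome. *vkg* (2L, 5012144 to 5028191, minus strand) and *Col4a1* (2L, 5029609 to 5037279, plus strand) stand back to back with 1417 bases between them. *LanB1* is also on 2L (7811438 to 7820771), *Ndg* (10313891 to 10322104) and *scb* (15248784 to 15258498) are on 2R, and *Pxn* (2601455 to 2630064) and *LanA* (6203831 to 6218022) are on 3L. *AdamTS-A* (15442246 to 15476193) and *SPARC* (26869238 to 26871995) are on 3R, and *trol* spans 2470460 to 2545427 of the X. Counts over the 4 libraries ran between 102 for *LanA* and 6698 for *AdamTS-A*. *Ndg*, with 110 counts, overlaps *CG34222* on the opposite strand, which had 89, and *Pxn*, with 156, overlaps *CG16986*, which had 705. The sources used here do not say whether reads were counted by strand, so reads of those overlaps cannot be told apart between the partners.

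In the control, the clusters with the highest levels differed from gene to gene. Counting over the 12 clusters with at least 30 nuclei in each control library, *vkg* and *Col4a1* were high in the adipose clusters. *vkg* had 92.0 and 97.4 CPM in cluster 0 (adipose), 72.8 and 129 CPM in cluster 2 (adipose), 30 and 25 CPM in cluster 3, 13.2 and 12.03 CPM in cluster 5 and 6.02 and 15.6 CPM in cluster 1 (oenocytes). Its levels in clusters 2, 13, 0, 9, 12, 7 and 4 ran into one another between the libraries, and cluster 4, with 54.0 and 63.4 CPM, was the first in the order whose libraries both lay above those of the next. *Col4a1* had 124 and 163 CPM in cluster 0, 153 and 214 CPM in cluster 2, 128 and 105 CPM in cluster 4 (adipose), 32.0 and 65.3 CPM in cluster 3 and 20.1 and 28.1 CPM in cluster 1, and among the first 4 clusters in its order the neighbours overlapped. *SPARC* had its highest mean in cluster 4, at 530 and 400 CPM, above the other adipose clusters at 175 and 240 CPM in cluster 0 and 126 and 245 CPM in cluster 2. Cluster 10, outside the adipose ones, was second in the order of both genes. It had 132 and 219 CPM of *Col4a1* and 198 and 328 CPM of *SPARC*, on only 10 and 15 UMIs over both libraries. The small clusters 12 and 13 had 413 and 446 CPM of *SPARC* in EGFP replicate 2 and none in EGFP replicate 1.

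The perlecan gene had another order. *trol* was highest in 2 small clusters, at 1034 and 723 CPM in cluster 12 and 992 and 547 CPM in cluster 10, which overlapped each other and lay above cluster 7 at 382 and 292 CPM. These small clusters rest on 33 and 14 UMIs of *trol* in cluster 12 and 15 and 20 in cluster 10, and their summed adipose markers differed between the libraries, at 3197 and 27675 CPM in cluster 12 and 22748 and 45579 CPM in cluster 10. Among the larger clusters *trol* had 342 and 102 CPM in cluster 5, 102 and 94.8 CPM in cluster 3, 46.0 and 37.3 CPM in cluster 0 and 16.1 and 10.95 CPM in cluster 1. *Ndg* was highest in cluster 5, at 39.5 and 90.2 CPM, above cluster 3 at 14 and 27 CPM, and no UMI of it was seen in the oenocyte clusters 1 and 6, which allows up to 4.69 to 6.02 CPM in cluster 1 and 17.2 to 22.1 CPM in cluster 6. *AdamTS-A* had 985 and 1982 CPM in cluster 0 and 552 and 1397 CPM in cluster 2, and *scb* had 90.9 and 106 CPM and 82.8 and 116 CPM in the same clusters. Clusters outside the adipose ones ran into these values of *AdamTS-A*. Their higher library had 1040 CPM in cluster 10, 871 CPM in cluster 9 and 726 CPM in cluster 7. The authors made the 16 clusters from the counts of these same nuclei, and which of the 10 genes took part was not checked, so the levels are a description without a test.

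**Figure D1:**
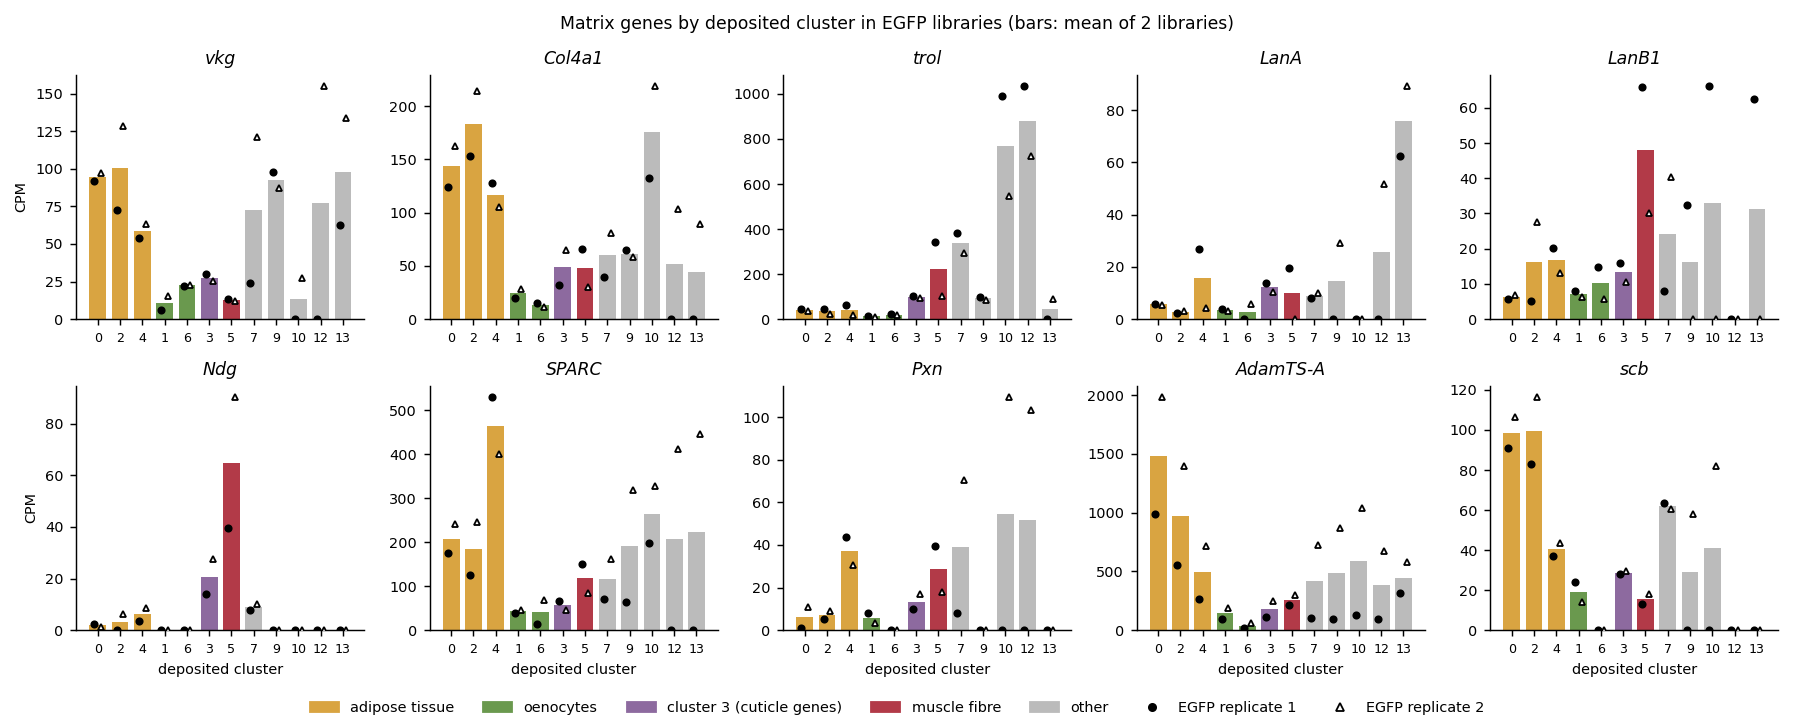
Level of each of the 10 genes (CPM) in the 12 clusters of the control that hold at least 30 nuclei in each library, with a bar for the mean and 1 point for each *oenots>EGFP* library. The mean of *SPARC* is highest in cluster 4 and that of *trol* in clusters 12 and 10, and *vkg* and *Col4a1* are high in clusters 0 and 2.

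The next comparison asks whether adipose nuclei held more transcript of each gene than the nuclei around them, in each genotype. Sums per library and tissue were tested across all genes with edgeR's quasi-likelihood test and Benjamini-Hochberg adjustment, and a gene was called at an adjusted p under 0.05. With 2 libraries a group, each from pooled animals, the p-values measure the spread between those libraries. In *oenots>EGFP*, 8 of the 10 genes passed the filter on low counts and 7 were called between adipose and cuticle-gene nuclei, 5 higher and 2 lower, where 31.6% of all 6963 genes were called, 16.2% higher and 15.4% lower. Between adipose and muscle fibre nuclei, 5 of the same 8 were called higher and 2 lower, against a background of 20.7%, 9.51% higher and 11.2% lower. The median log2 fold change of the 8 was 1.77 over cuticle-gene nuclei and 1.53 over muscle fibre, against -0.0026 and 0.05 over all genes tested. With no filter on low counts, the medians of all 10 were lower, at 0.99 and 0.85, against 0.08 and 0.39 over all genes.

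The collagens were higher in adipose nuclei. In *oenots>EGFP*, *vkg* had 81.5 and 95.8 CPM in adipose nuclei, against 21.4 and 23.9 CPM in cuticle-gene nuclei and 16.5 and 6.536 CPM in muscle fibre. Its log2 fold change was 2.01 (SE 0.35) over cuticle-gene nuclei and 3.04 (SE 0.54) over muscle fibre, with adjusted p of 0.00164 and 0.00306 in edgeR's quasi-likelihood test. Muscle fibre held only 3 UMIs of *vkg* in both libraries, and the ratio of the summed counts was 8.23 (2.79 to 40.1, exact 95% interval of the counting error alone), while the log2 fold change was 3.86 without EGFP replicate 1 and 2.39 without EGFP replicate 2. *Col4a1* had 138 and 158 CPM in adipose nuclei, against 21.4 and 59.8 CPM in cuticle-gene nuclei and 57.6 and 39.2 CPM in muscle fibre. It was higher by 1.93 (SE 0.41, adjusted p = 0.00455 by edgeR) and by 1.67 (SE 0.48, adjusted p = 0.0327) on the log2 scale. The first of these was 1.45 without EGFP replicate 1 and 2.75 without EGFP replicate 2. In all of these sets the adipose libraries lay above the others without overlap.

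In *oenots>tsc1,tsc2* the collagens had like levels in adipose nuclei, *vkg* at 88.1 and 93.1 CPM and *Col4a1* at 173 and 179 CPM. In that genotype 6 of the 10 genes passed the filter, and 4 were called between adipose and cuticle-gene nuclei, 3 higher and 1 lower, where 17.5% of all 6697 genes were called, 7.84% higher and 9.65% lower. Between adipose and muscle fibre nuclei 1 was called higher and 1 lower, with a background of 12.8%, 5.42% higher and 7.35% lower. The median log2 fold changes of the 6 were 1.63 and 0.75, against 0.0014 and 0.01 over all genes tested. With no filter on low counts, those of all 10 were 0.33 and 0.84, against 0.15 and 0.45 over all genes. *vkg* was higher than in cuticle-gene nuclei, which had 27.7 and 10.3 CPM, by 1.95 on the log2 scale (SE 0.57, adjusted p = 0.0354 by edgeR). That difference was 2.95 without tsc1,tsc2 replicate 1. It lost its call in 4 of 6 alternatives, at adjusted p of 0.0659 under DESeq2, 0.0526 with library totals alone, 0.0603 with tissues taken from the nearest control nuclei, and 0.13 (log2 fold change 1.45) when 2 joint clusters of cuticle-gene nuclei with strong muscle markers were left out. Over muscle fibre, with 36.6 and 0 CPM (the 0 allows up to 26.8 CPM), *vkg* differed by 2.15 (SE 0.74, adjusted p = 0.0813), but it was called with the library as a block (2.13, adjusted p = 0.0212) and with no filter on low counts (2.43, adjusted p = 0.00557). *Col4a1* did not pass the test over cuticle-gene nuclei, at 42.4 and 55.1 CPM (log2 fold change 1.65, SE 0.56, adjusted p = 0.0649), nor over muscle fibre, at 110 and 62.5 CPM (0.99, SE 0.59, adjusted p = 0.354). The first of these was called in 3 of 6 alternatives, with the library as a block (1.67, adjusted p = 0.0072), with no filter on low counts (1.83, adjusted p = 0.00602) and with tissues taken from the nearest control nuclei (2.13, adjusted p = 0.0166). Whether the folds differ between the genotypes was not tested.

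*SPARC*, the collagen-binding partner, was higher in adipose nuclei in all 4 comparisons. It had 355 and 378 CPM in *oenots>tsc1,tsc2* adipose nuclei, against 105 and 103 CPM in cuticle-gene nuclei and 80.6 and 107 CPM in muscle fibre of the same genotype. The log2 fold changes were 1.61 (SE 0.44, adjusted p = 0.0262 by edgeR) and 1.94 (SE 0.48, adjusted p = 0.0205). In *oenots>EGFP* it had 222 and 273 CPM in adipose nuclei, against 64.2 and 33.5 CPM in cuticle-gene nuclei and 132 and 65.4 CPM in muscle fibre. The adipose libraries lay above all of these, with log2 fold changes of 2.36 (SE 0.39, adjusted p = 0.0012 by edgeR) and 1.40 (SE 0.42, adjusted p = 0.0385). The control values depended on the libraries, at 3.07 and 2.07 without EGFP replicate 1 and 1.86 and 0.85 without EGFP replicate 2. With the cuticle-gene nuclei of strong muscle markers left out of the fit, 2 of the calls were lost, over muscle fibre in *oenots>EGFP* (adjusted p = 0.0776 by edgeR) and over cuticle-gene nuclei in *oenots>tsc1,tsc2* (adjusted p = 0.0513).

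*AdamTS-A* had the largest count of the 10, and adipose nuclei held most of it. In *oenots>EGFP* it had 729 and 1580 CPM in adipose nuclei, against 83.4 and 225 CPM in cuticle-gene nuclei and 189 and 327 CPM in muscle fibre. The libraries did not overlap, and it was higher by 2.95 (SE 0.55, adjusted p = 0.00237 by edgeR) and 2.18 (SE 0.56, adjusted p = 0.0192) on the log2 scale. In *oenots>tsc1,tsc2* it had 311 and 575 CPM in adipose nuclei, against 44.3 and 79.2 CPM in cuticle-gene nuclei, and was higher by 2.67 (SE 0.57, adjusted p = 0.00781 by edgeR). Muscle fibre of that genotype had 381 and 241 CPM, which overlapped the adipose values, and the log2 fold change of 0.52 (SE 0.53, adjusted p = 0.649) did not pass the test. *AdamTS-A* is among the leading genes of cluster 0, so its adipose level in the control may have taken part in the making of that cluster.

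The integrin chain *scb*, a receptor that anchors cells to matrix, was high in control adipose nuclei, at 77.3 and 91.7 CPM, against 25.7 and 31.1 CPM in cuticle-gene nuclei and 8.23 and 26.1 CPM in muscle fibre. The log2 fold changes were 1.62 (SE 0.37, adjusted p = 0.00667 by edgeR) and 2.25 (SE 0.52, adjusted p = 0.0122). The value over muscle fibre was 1.82 without EGFP replicate 1 and 3.30 without EGFP replicate 2, since muscle fibre held 1 and 4 UMIs. In *oenots>tsc1,tsc2*, *scb* had 15.6 and 7.45 CPM in adipose nuclei, against 12.9 and 6.88 CPM in cuticle-gene nuclei, and was filtered out as too low to test.

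**Figure D2:**
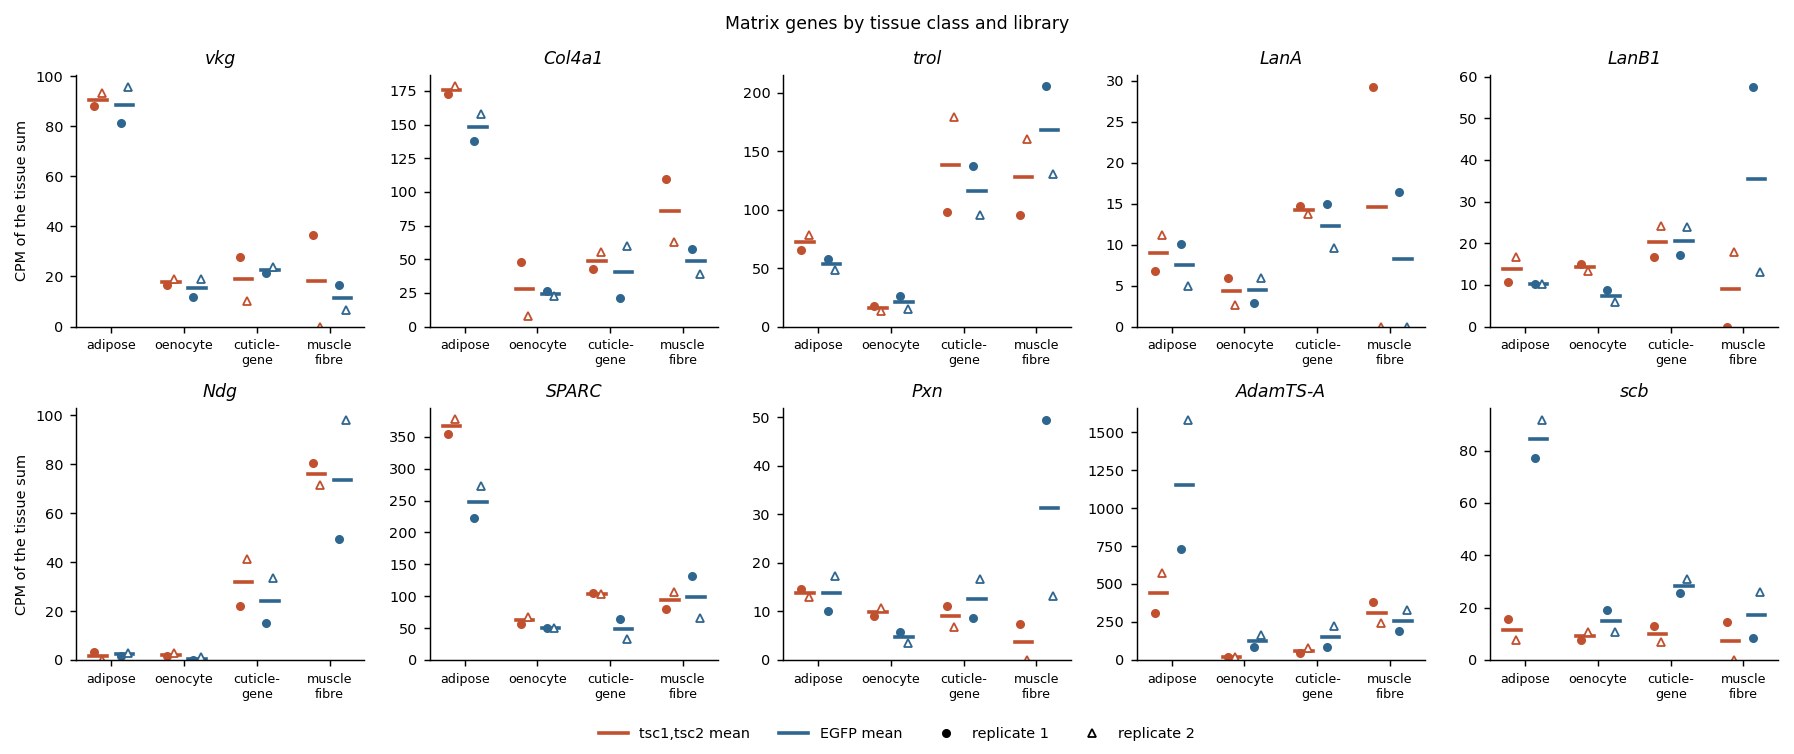
Level of each of the 10 genes (CPM) in adipose, cuticle-gene, muscle fibre and oenocyte nuclei, with 1 point for each library of *oenots>tsc1,tsc2* and *oenots>EGFP* and a line at their mean. *SPARC* in adipose nuclei lies between 222 and 378 CPM in the 4 libraries, above each of its values in the other tissues.

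*trol* and *Ndg*, for the linkers perlecan and nidogen, went the other way. In *oenots>EGFP*, *trol* had 57.7 and 48.7 CPM in adipose nuclei, against 137 and 95.6 CPM in cuticle-gene nuclei and 206 and 131 CPM in muscle fibre. It was lower by 1.09 (log2 fold change -1.09, SE 0.35, adjusted p = 0.0378 by edgeR) and by 1.60 (-1.60, SE 0.38, adjusted p = 0.0145), with no overlap between libraries. In *oenots>tsc1,tsc2* it had 65.7 and 78.2 CPM in adipose nuclei, against 97.7 and 179 CPM in cuticle-gene nuclei and 95.3 and 161 CPM in muscle fibre. Neither difference was called (log2 fold changes -1.18 and -0.87, adjusted p = 0.135 and 0.376 by edgeR), though the first was called with the library as a block (-1.09, adjusted p = 0.032).

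*Ndg* was nearly lacking in adipose nuclei, where the *oenots>tsc1,tsc2* libraries had 7 and 0 UMIs (3.41 and 0 CPM, the 0 allowing up to 5.58 CPM) and the *oenots>EGFP* libraries 3 and 7 UMIs (1.78 and 2.89 CPM). It had 22.1 and 41.3 CPM in *oenots>tsc1,tsc2* cuticle-gene nuclei and 80.6 and 71.4 CPM in *oenots>tsc1,tsc2* muscle fibre. The *oenots>EGFP* nuclei had 15.0 and 33.5 CPM and 49.4 and 98.0 CPM in the same tissues. The log2 fold changes of adipose over cuticle-gene nuclei were -3.85 (SE 0.81, adjusted p = 0.00729 by edgeR) in *oenots>tsc1,tsc2* and -3.21 (SE 0.73, adjusted p = 0.00672) in *oenots>EGFP*. Over muscle fibre they were -4.96 (SE 0.84, adjusted p = 0.00246 by edgeR) and -4.85 (SE 0.75, adjusted p = 0.00138). *Ndg* passed the filter through the tissues in which it is high, and the *oenots>tsc1,tsc2* values rest on 1 library, at -6.88 and -7.46 without tsc1,tsc2 replicate 1 and -2.86 and -4.46 without tsc1,tsc2 replicate 2.

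The calls of *trol* and *Ndg* over cuticle-gene nuclei depended on which nuclei were in that class. The control call of *trol* was lost in 4 of 8 alternatives, at adjusted p of 0.0593 under DESeq2, 0.0663 with the deposited clusters, 0.0807 with the nearest control nuclei, and without the cuticle-gene nuclei of strong muscle markers. Without those nuclei, the control log2 fold changes were -0.92 for *trol* (adjusted p = 0.0819 by edgeR) and -2.26 for *Ndg* (adjusted p = 0.0636), and the *oenots>tsc1,tsc2* value of *Ndg* was -2.05 (adjusted p = 0.329). Over muscle fibre both genes were called in *oenots>EGFP*, though *trol* not with at least 10 counts in every sum (adjusted p = 0.0502), and *Ndg* also in *oenots>tsc1,tsc2*.

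**Figure D3:**
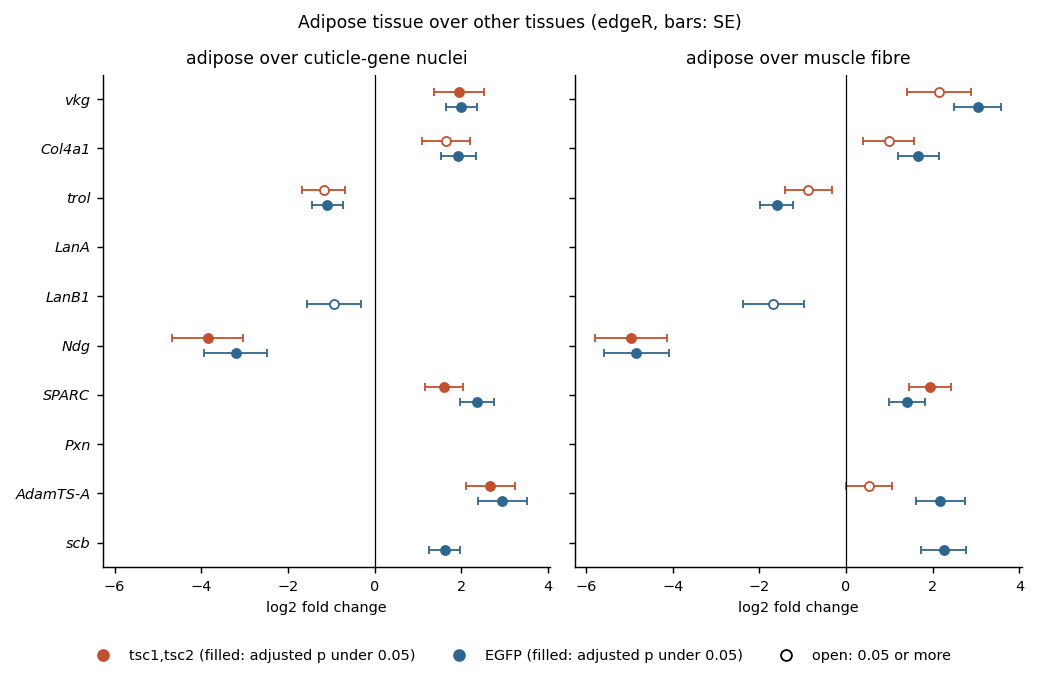
Log2 fold change of adipose over cuticle-gene nuclei and over muscle fibre for each of the tested genes, in *oenots>tsc1,tsc2* and in *oenots>EGFP*, with bars of 1 SE (filled points have an adjusted p under 0.05 in edgeR's quasi-likelihood test). *Ndg* lies between -4.96 and -3.21 and *SPARC* between 1.40 and 2.36 in the 4 comparisons.

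The laminin chains and peroxidasin were sparse. *LanB1* had 10.7 and 16.8 CPM in *oenots>tsc1,tsc2* adipose nuclei and 10.1 and 10.3 CPM in *oenots>EGFP* adipose nuclei, against 17.1 and 23.9 CPM in *oenots>EGFP* cuticle-gene nuclei and 57.6 and 13.1 CPM in *oenots>EGFP* muscle fibre. The control differences did not pass the test (log2 fold changes -0.94 and -1.68, adjusted p = 0.303 and 0.128 by edgeR), but *LanB1* was called lower than in muscle fibre with the deposited clusters (-2.12, adjusted p = 0.032) and with the nearest control nuclei (-2.22, adjusted p = 0.0464). That value was -0.32 without EGFP replicate 1 and -2.40 without EGFP replicate 2. *LanA* had between 4.96 and 11.2 CPM in the adipose nuclei of the 4 libraries and *Pxn* between 10.1 and 17.4 CPM, and neither passed the filter in a comparison of tissues. With 102 and 156 counts in all, they were not tested between tissues.

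The share of a gene's own UMIs that came from adipose nuclei gives the same values another way. Adipose nuclei gave 51.7% and 37.1% of all UMIs of the *oenots>tsc1,tsc2* libraries and 51.6% and 61.7% of the *oenots>EGFP* libraries. They gave 75.5% and 76.2% of the *Col4a1* UMIs of *oenots>tsc1,tsc2* and 84.1% and 86.8% of those of *oenots>EGFP*. For *vkg* the shares were 77.4% and 82.0% against 82.0% and 87.2%, and for *SPARC* 81.9% and 71.7% against 79.6% and 88.2%. For *trol* they were 44.7% and 30.2% in *oenots>tsc1,tsc2* and 32.1% and 55.9% in *oenots>EGFP*, each below the adipose share of all UMIs. With the deposited clusters, the shares of *trol* in *oenots>EGFP* were 25.5% and 33.2%. The adipose class of EGFP replicate 2 held 4841 nuclei by the deposited clusters and 5256 by the joint clustering.

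Few nuclei held a UMI of any of these genes. After each nucleus was thinned to 200 UMIs, *AdamTS-A* was seen in a mean of 8.65% of *oenots>tsc1,tsc2* adipose nuclei and 13.5% of *oenots>EGFP* adipose nuclei, and *Col4a1* in 3.64% and 3.04%. Oenocytes were taken as a reference level, but free RNA itself was not measured, and part of that class held adipose markers. For *AdamTS-A* the thinned shares in oenocytes were 0.355% and 0.277% in *oenots>tsc1,tsc2* and 1.14% and 1.82% in *oenots>EGFP*. For *Col4a1* they were 0.852% and 0.277%, against 0.507% and 0.412%. The oenocytes had median depths of 405 and 413 UMIs in *oenots>tsc1,tsc2* and 357 and 434 UMIs in *oenots>EGFP*. Oenocytes were not always lowest, as *vkg* had a mean of 0.211% in *oenots>tsc1,tsc2* muscle fibre. The adipose share of *SPARC* was 4.79% in *oenots>tsc1,tsc2* and 3.08% in *oenots>EGFP*, and that of *vkg* 1.66% and 1.79%, each above the 0.253% to 1.11% that both genes had in oenocytes. The adipose nuclei had median depths of 416 and 474.5 UMIs in *oenots>tsc1,tsc2* and 355 and 401.5 UMIs in *oenots>EGFP*.

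Other genes of matrix and adhesion were called in both directions, with more higher than lower in each of the 4 comparisons. Of a list of 38 such genes 37 were counted, and in *oenots>EGFP* 28 were tested. Of these, 12 were higher and 2 lower in adipose than in cuticle-gene nuclei, against 16.2% and 15.4% of all genes. Over muscle fibre 8 were higher and 5 lower, against 9.51% and 11.2% of all genes. In *oenots>tsc1,tsc2* 26 were tested, with 5 higher and 2 lower over cuticle-gene nuclei (all genes 7.84% and 9.65%). Over muscle fibre of that genotype 4 were higher and 3 lower (all genes 5.42% and 7.35%). The medians of the list were 0.83 and 0.62 in *oenots>EGFP* and 0.18 and 0.40 in *oenots>tsc1,tsc2* on the log2 scale, where all genes tested had medians of -0.0026, 0.05, 0.0014 and 0.01.

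Those called in all 4 comparisons were *Sdc*, *Tig*, *wb* and *Pax*. *Sdc*, the cell surface proteoglycan syndecan, had 1626 and 1562 CPM in *oenots>tsc1,tsc2* adipose nuclei and 3482 and 3046 CPM in *oenots>EGFP* adipose nuclei, and its log2 fold changes over cuticle-gene nuclei were 2.03 and 2.77. *Tig*, the integrin ligand tiggrin, had 592 and 462 CPM against 471 and 578 CPM in the same nuclei, with log2 fold changes of 3.55 and 3.13. *wb*, a laminin alpha chain, had 337 and 380 CPM against 568 and 810 CPM, with log2 fold changes of 3.47 and 3.27, so that among the laminin chains tested it was this one that was called in adipose nuclei. *Pax*, the adhesion adaptor paxillin, had 68.6 and 37.2 CPM in *oenots>tsc1,tsc2* adipose nuclei, against 1583 and 2561 CPM in muscle fibre, and 50.0 and 56.6 CPM in *oenots>EGFP* adipose nuclei, against 1622 and 2144 CPM in muscle fibre. It was lower, with log2 fold changes of -5.35 and -5.10.

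Of the others called at least in 2 comparisons, the integrin alpha chain *mew*, the kinase *Fak* and the proteases *kuz* and *Mmp2* were higher in adipose nuclei. *Fak*, the focal adhesion kinase, had log2 fold changes of 1.92 over cuticle-gene nuclei in *oenots>tsc1,tsc2* and of 1.65 in *oenots>EGFP*. *mew* had log2 fold changes of 2.53 over cuticle-gene nuclei and 2.36 over muscle fibre in *oenots>tsc1,tsc2* and of 2.00 over cuticle-gene nuclei in *oenots>EGFP*. *kuz* was higher by 2.34 and 1.44 and *Mmp2*, a matrix metalloproteinase, by 1.24 and 1.71 in *oenots>EGFP*. The muscle attachment genes *rhea*, for talin, and *Ilk*, the integrin-linked kinase, were lower than in muscle fibre, by log2 fold changes of -1.97 and -1.52 in *oenots>tsc1,tsc2* and -1.70 and -1.33 in *oenots>EGFP*. *Mp*, for multiplexin, a collagen of the type XV and XVIII group, was lower than in cuticle-gene nuclei, at -1.88 in *oenots>tsc1,tsc2* and -1.58 in *oenots>EGFP*.

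The last comparison sets *oenots>tsc1,tsc2* against *oenots>EGFP* within each tissue. Within the classes the genotypes fell into different joint clusters, with most *oenots>tsc1,tsc2* adipose nuclei in joint clusters 5, 6, 10, 7 and 17 and most *oenots>EGFP* adipose nuclei in 0, 2, 4 and 8, and each genotype has its own 2 libraries, so genotype and anything that differed between the preparations cannot be told apart. The summed male tract markers of adipose nuclei, for example, were 1268 to 6291 CPM in *oenots>tsc1,tsc2* and 293 to 1616 CPM in *oenots>EGFP*, and their part in the differences was not tested. In adipose nuclei 9 of the 10 genes were tested and none was called, where edgeR called 0% of 8419 genes (1174 had an unadjusted p under 0.05, and DESeq2 called 201, none of the 10 among them, though it gave *scb* no adjusted p). *scb* had 15.6 and 7.45 CPM in *oenots>tsc1,tsc2* adipose nuclei, 32 and 4 UMIs, against 77.3 and 91.7 CPM in *oenots>EGFP* adipose nuclei, 130 and 222 UMIs. The groups did not overlap, and the log2 fold change was -2.80 (SE 0.35, adjusted p = 0.0816 by edgeR). Leaving out each library in turn kept the log2 fold change between -3.38 and -2.64, and the adjusted p lay between 0.000208 with no filter on low counts and 0.362 over the alternatives and the libraries left out.

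*AdamTS-A* was also low in *oenots>tsc1,tsc2* adipose nuclei, at 311 and 575 CPM against 729 and 1580 CPM in *oenots>EGFP*. The log2 fold change was -1.37 (SE 0.52, adjusted p = 0.325 by edgeR), and between -2.08 and -0.76 when a library was left out. In oenocytes, the tissue of the driver, it was the 1 member called of the 5 tested, where 3.38% of 6443 genes were called, 1.55% higher and 1.83% lower. *AdamTS-A* had 19.5 and 21.5 CPM in *oenots>tsc1,tsc2* oenocytes, 13 and 8 UMIs, against 87.6 and 162 CPM in *oenots>EGFP* oenocytes, 60 and 137 UMIs. It was lower, with a log2 fold change of -2.70 (SE 0.49, adjusted p = 0.0389 by edgeR), which did not pass the test with library totals alone (adjusted p = 0.0557), without tsc1,tsc2 replicate 1 (-2.45, adjusted p = 0.0588) or without tsc1,tsc2 replicate 2 (-2.94, adjusted p = 0.104). The gene was also not called when joint cluster 20 or joint cluster 3 was left out of the oenocyte class. Joint cluster 3 held 1041 of 1409 and 565 of 722 oenocyte nuclei of *oenots>tsc1,tsc2*, but only 4 and 5 nuclei of *oenots>EGFP*. Leaving it out therefore removed most of the class in 1 genotype and little in the other, so the lost call there is hard to read.

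In *oenots>EGFP* most *AdamTS-A* UMIs of the oenocyte class lay in joint cluster 20, with 48 of 60 and 89 of 137, and in *oenots>tsc1,tsc2* 5 of 13 and 5 of 8 did. This cluster held 48 and 22 nuclei of *oenots>tsc1,tsc2* and 151 and 114 of *oenots>EGFP*, and its summed adipose markers, at 38686 and 49047 CPM and at 42974 and 38345 CPM, came near those of adipose nuclei. Over the whole oenocyte class the adipose markers summed to 5238 and 6406 CPM in *oenots>tsc1,tsc2* and 9301 and 6618 CPM in *oenots>EGFP*. Without joint cluster 20 the log2 fold change of *AdamTS-A* was -2.02 (SE 0.69, adjusted p = 0.175 by edgeR). Elsewhere in the class *AdamTS-A* had 11.9 and 8.42 CPM in joint cluster 3, which held 1041 and 565 nuclei of *oenots>tsc1,tsc2*, against 19.5 and 53.0 CPM in joint cluster 1, which held 1160 and 1248 nuclei of *oenots>EGFP*. Joint cluster 3 took its name from its nearest control nuclei, and its 10 leading genes held 1 cuticle marker and no oenocyte marker. In it 4 oenocyte markers and 1 cuticle marker exceeded the rest of the nuclei by 2-fold or more. Its oenocyte markers summed to 25673 and 31328 CPM in *oenots>tsc1,tsc2*, against adipose markers at 2719 and 3155 CPM. Without joint cluster 3 the log2 fold change of *AdamTS-A* was -1.76 (adjusted p = 0.0998 by edgeR).

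The collagens and their partners gave no call between the genotypes. In adipose nuclei *vkg* averaged 90.6 ± 3.53 CPM in *oenots>tsc1,tsc2* and 88.7 ± 10.2 CPM in *oenots>EGFP* (SD, n = 2 each), a log2 fold change of -0.01 (SE 0.29). *Col4a1* averaged 176 ± 4.20 CPM and 148 ± 14.03 CPM, a log2 fold change of 0.22 (SE 0.29). *SPARC* averaged 366 ± 16.3 CPM in *oenots>tsc1,tsc2* and 248 ± 35.5 CPM in *oenots>EGFP*, without overlap, with a log2 fold change of 0.54 (SE 0.31, adjusted p = 0.514 by edgeR). In cuticle-gene nuclei *SPARC* was at 1.26 (SE 0.44, adjusted p = 0.489 by edgeR), and none of the 8 genes tested there was called, where 0.413% of 5567 genes were, 0.323% higher and 0.0898% lower. In muscle fibre none of 4 tested genes was called, with 0% of 1865 genes called by edgeR (148 at an unadjusted p under 0.05, and 2 called by DESeq2).

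Over all nuclei of a library the same 2 genes were furthest apart. There, fewer nuclei of a type and less RNA in each cannot be told apart. edgeR called 0% of 9546 genes (1456 had an unadjusted p under 0.05, and DESeq2 called 374). *scb* had 17.9 and 8.28 CPM in *oenots>tsc1,tsc2*, against 51.9 and 63.7 CPM in *oenots>EGFP*, a log2 fold change of -2.16 (SE 0.38, adjusted p = 0.163 by edgeR and 0.00214 by DESeq2). *AdamTS-A* had 193 and 272 CPM, against 430 and 1055 CPM, a log2 fold change of -1.70 (SE 0.53, adjusted p = 0.239 by edgeR and 0.0322 by DESeq2). The other 8 genes had log2 fold changes between -0.29 for *vkg* and 0.55 for *Ndg*. Of the 37 other matrix genes, edgeR tested between 12 and 33 in each tissue and over all nuclei and called none between the genotypes. The median log2 fold change of those tested was -0.46 in adipose nuclei, -0.39 in oenocytes and -0.37 over all nuclei. All genes tested had medians of 0.0035, 0.017 and 0.018. In cuticle-gene nuclei and muscle fibre the list was at -0.02 and -0.23. DESeq2 called 2 of the list lower in adipose nuclei, 2 in oenocytes and 2 over all nuclei, and 0 higher. In adipose nuclei the list summed to 4512 to 5196 CPM in *oenots>tsc1,tsc2* and 7680 to 7895 CPM in *oenots>EGFP*. *Sdc*, whose levels are given above, made up a large part of these sums and of the gap between them. The sums are therefore not a measure of the list as a whole.

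**Figure D4:**
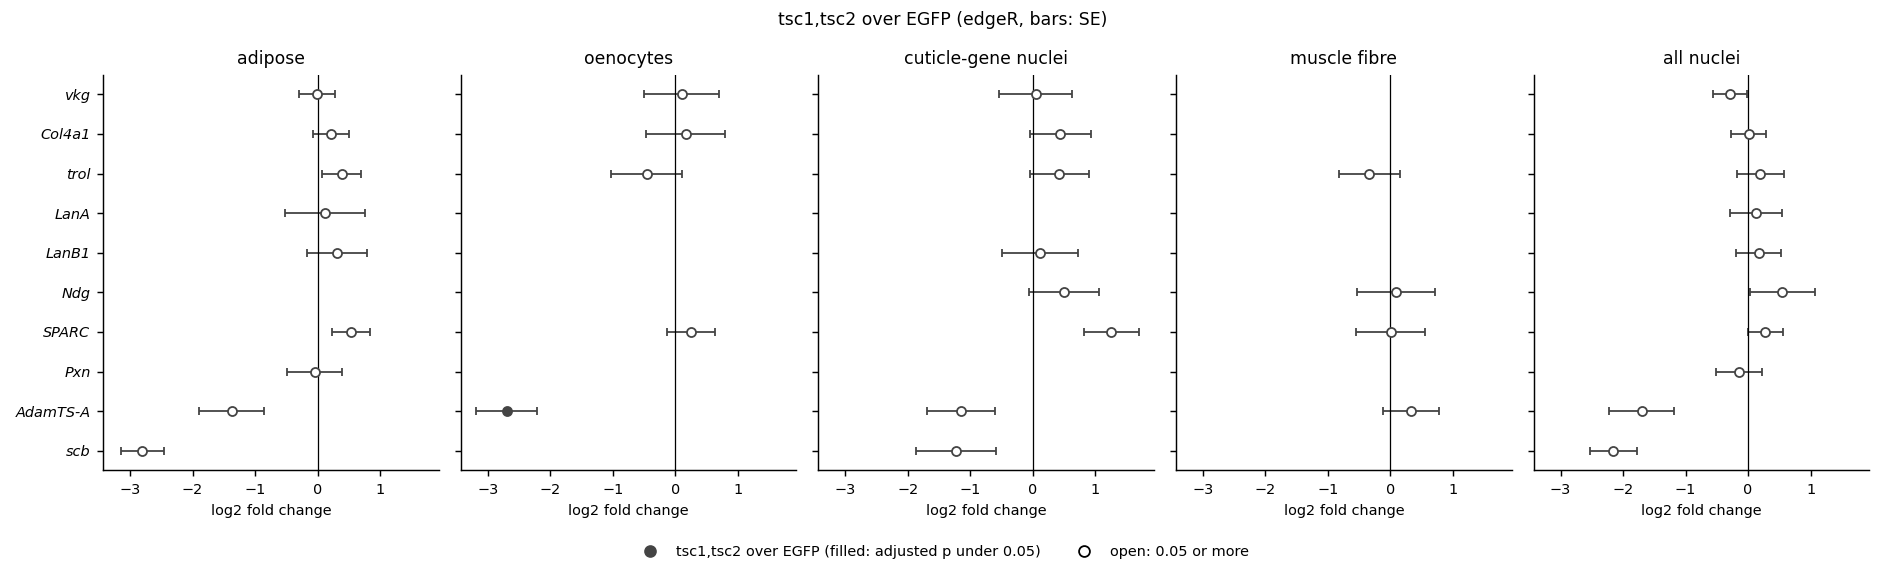
Log2 fold change of *oenots>tsc1,tsc2* over *oenots>EGFP* for each tested gene in adipose, oenocyte, cuticle-gene and muscle fibre nuclei and in all nuclei, with bars of 1 SE (filled points have an adjusted p under 0.05 in edgeR's quasi-likelihood test). Only *AdamTS-A* in oenocytes, at -2.70, is filled, and *scb* in adipose nuclei lies at -2.80.

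Likeness to other genes was measured over 24 sums of the control, each of 1 cluster in 1 library, with 6166 genes compared by Pearson's r of log2(CPM + 10). The sums of a library share its depth and its free RNA, and the values are a description. The 5 genes most like *Col4a1* were *CG4210* (0.91), *Ork1* (0.90), *CG42663* (0.89), *UGP* (0.88) and *CG6067* (0.87). *SPARC* was most like *Col4a1* itself (0.87). *vkg* was most like *CG17278* (0.85), *Dmtn* (0.81) and *Hex-C* (0.80), and with its neighbour *Col4a1*, of the same collagen, it had r = 0.48. Some of these sums hold few UMIs, so counting error enters r. Over both libraries *vkg* had 1 UMI in cluster 10 and 3 in cluster 12, and *Col4a1* had 2 each in clusters 12 and 13. For *AdamTS-A* the most alike were *CG17124*, *sgg* and *Gbs-70E*, each at 0.91, of which *Gbs-70E* is in the list of adipose markers.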

How the data were processed

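Single-nuclei RNA-seq of adult male abdomens was analysed in 4 libraries, 2 for each genotype. The deposited values are UMI counts per gene and nucleus, which the authors made with Cell Ranger 3.1.0 on a pre-mRNA reference, corrected for free RNA with SoupX at a fixed fraction, and filtered for nuclei with totals beyond 2 SD, which they removed as doublets or dead cells, so no doublet caller was run. The authors clustered the control nuclei with Seurat 3.1.2 and Harmony. An annotation of the other genotype was not used here. All 25141 nuclei (12601994 UMIs, 254 to 3006 each) were kept.

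The members, the lists of markers and of 38 matrix genes, and the tests were chosen with earlier results of these data known. To carry tissues to all libraries, nuclei were clustered together in Python 3.11.15 with leidenalg 0.10.2 and igraph 0.11.9 (2000 variable genes, 30 principal components, 20 neighbours, seed 1, resolution 2, 47 member and matrix genes left out). The resolution was set after seeing that it kept clusters 3 and 5 apart. Each of the 38 joint clusters took the tissue of most of its control nuclei, and 5 with under 10 control nuclei that of the nearest ones. Adipose was clusters 0, 2, 4 and 8, oenocytes 1 and 6, cuticle-gene nuclei 3 and muscle fibre 5. Of the nuclei in these deposited clusters, 97.7% of adipose, 99.3% of oenocyte, 82.8% of cuticle-gene and 78.4% of muscle fibre nuclei kept their tissue. Of the nuclei in the remaining clusters, only 59.0% stayed outside these tissues. Joint clusters 0 and 18, both adipose, took in 140 and 90 of them. In EGFP replicate 2 the class outside the 4 tissues held 155 nuclei, against 481 by the deposited clusters.

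Counts were summed by library and tissue. The sums went into the quasi-likelihood test of edgeR 4.0.16 under R 4.3.3, with TMM factors, filterByExpr, Benjamini-Hochberg adjustment over all genes and a threshold of 0.05. Tissues were compared with the 4 named classes of a genotype in 1 fit, genotypes within a tissue. The SE was derived by dividing the log2 fold change by the root of F. A count of 0 allows up to 3 counts, and such floors and intervals cover counting error only. Replicate libraries differed far beyond sampling noise (chi-square per degree of freedom 22.3 for tsc1,tsc2 and 23.3 for EGFP). Tissues of a library come from the same animals. Deviations of libraries correlated between tissues at 0.176 to 0.441, so the sums of a library are not independent where tissues are compared. The main fit had no library block and left this pairing out, and the block was run as an alternative. Of 200 genes given a log2 change of 2 in simulated counts, edgeR found 57.5% in adipose tissue between genotypes (8419 genes), 58.5% in oenocytes (6443 genes) and 32.5% between adipose and muscle fibre in EGFP (6963 genes). The simulation gave every gene the same fixed spread between libraries and drew the sums independently. Its shares are therefore not the power at the spread of these libraries.

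Matrix genes outside the members were named when called in at least 2 comparisons, and the 5 genes most like a member by r with a mean of at least 20 CPM. Alternatives were DESeq2 1.42.0, library totals alone, no filter, at least 10 counts in every sum, blocks, other tissue assignments, no thinning and each library left out. The fits without the cuticle-gene nuclei of joint clusters 9 and 36, without joint cluster 20 and without joint cluster 3 were added after seeing the data.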

Additional observations from a re-analysis of the deposited data

How the results depend on the processing

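Of the 50 member values with the opposite sign under an alternative (of 595), 0 were called in either fit. In EGFP adipose over cuticle-gene nuclei, 1 member (*Ndg*, not *trol*) stayed lower under DESeq2, the deposited clusters or the nearest control nuclei, and 0 without the 2 joint clusters of strong muscle markers, where tsc1,tsc2 kept 1 higher and 0 lower. At least 10 counts in every sum, which drops genes low in a tissue, left 2 higher and 1 lower (980 of 2202 genes) over cuticle-gene nuclei and 2 higher and 0 lower (799 of 1439) over muscle fibre in EGFP, and 1 higher and 0 lower (568) and 0 lower (443) in tsc1,tsc2. The same filter called 97 genes between genotypes in adipose tissue, 58 in all nuclei and 440 in oenocytes, where *AdamTS-A* was dropped and 0 members were lower. The library as a replicate block added *Col4a1* higher and *trol* lower over cuticle-gene nuclei in tsc1,tsc2 (4 higher and 2 lower, 1924 genes against 1171) and *vkg* higher over muscle fibre (2 higher, 1321 against 855), and moved no other member call between tissues. No filter gave 2 higher over muscle fibre in tsc1,tsc2. Library totals alone moved the median of all genes by 0.22 (log2) in tsc1,tsc2 over cuticle-gene nuclei and left 0 members called in oenocytes between genotypes, where 91 genes were higher and 80 lower (100 and 118 with TMM).

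Between genotypes, no filter called 256 genes in adipose tissue (1 member, *scb*), 37 in all nuclei, 99 in cuticle-gene nuclei, 38 in muscle fibre and 681 in oenocytes. The replicate number as a block called 307 (2 members, *scb* and *AdamTS-A*), 55, 71, 4 and 502. Same-numbered libraries correlated at 0.0640 to 0.215 over only 2 pairs, so they share only a number. DESeq2 called 201, 374 (2 members), 2 in muscle fibre and 425 in oenocytes. The nearest control nuclei gave 5 genes in cuticle-gene nuclei and 3 in muscle fibre, and leaving out the 2 joint clusters gave 4 in cuticle-gene nuclei. In oenocytes, leaving out joint cluster 20 called 220 genes and joint cluster 3 368 genes, with 0 members in either fit. Without 1 library, calls ran from 0 to 185 in adipose tissue (0 to 1 member), 0 to 150 in all nuclei, 33 to 180 in cuticle-gene nuclei, 3 to 58 in muscle fibre and 54 to 335 in oenocytes (0 to 1 member), the lone library being assumed to vary like the others. Between tissues, leaving out a library left no residual degrees of freedom, so those values have no test.

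Without thinning, the shares of adipose nuclei in tsc1,tsc2 and EGFP were 4.00% and 3.68% for *vkg*, 7.37% and 5.71% for *Col4a1*, 7.70% and 4.66% for *SPARC*, 15.2% and 17.2% for *AdamTS-A* and 0.589% and 3.56% for *scb*, and those of muscle fibre 7.28% and 7.37% for *trol* and 4.32% and 4.25% for *Ndg*. Muscle fibre had 112044 to 152994 UMIs a library, so that 3 counts are worth 19.6 to 26.8 CPM there, against 1.24 to 5.58 CPM in adipose tissue.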
